A study of Rattus norvegicus with 7 samples.

Results

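Microglia are the resident macrophages of the spinal cord, and the list described here holds 34 genes that mark microglia and other macrophages or the leukocytes they belong to. A gene was measured through the probe sets annotated with its symbol alone, taking the one of highest mean signal, and was kept where that mean over the arrays was at least 100. Of the 34 genes, 32 had such a probe set and 28 passed the minimum, out of 10315 genes measured in the same way in the whole series. The genes were taken by name, from a list drawn up with earlier results of these data known.

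Cells of the spinal cord of embryonic day 15 (E15) Sprague-Dawley rats were cultured for 3 days on flexible, collagen-coated well bottoms and then stretched by a vacuum at 10% strain and 0.5 Hz for up to 72 hours. The dorsal root ganglia and meninges had been removed before the cells were dissociated, and all arrays share this strain, age and preparation. RNA was taken before loading (0 hours), after 2, 6 and 12 hours and after 24, 48 and 72 hours of cyclic tensile strain, and the RNA of 5 animals was pooled for 1 array per time point, so that the 7 arrays hold no replicate. The load was not uniform over a well, so that each array averages cells under different strain. No array of an unloaded culture at a later time was analysed here, so that hours of strain and hours in culture cannot be told apart. In RNA from a mixed culture, fewer cells of a type and less RNA per cell cannot be told apart either.

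Microglia arise from yolk sac macrophages and depend on the growth factor receptor CSF1R. They recognise antibodies, lipids and debris through receptors that signal over the ITAM adaptors TYROBP and FCER1G, adhere through the integrin CR3, and digest what they engulf in lysosomes rich in CD68 and cathepsins. In culture and after injury they are known to lose the purinergic receptor P2RY12 and other genes of the resting state.

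On the deposited scale the genes of this list were mostly higher than at 0 hours during the first hours of strain and mostly lower at 72 hours. At 6 hours 27 of the 28 genes had a higher signal than at 0 hours, with a median difference of 0.41 on the scale of log2(signal + 32), and at 72 hours 24 had a lower one, with a median of -0.48. The end points of single genes differed. The transporter gene Slco2b1 and the lectin gene Clec4a1 ended at 0.0781 and 0.0762 times their 0 hour signal, whereas the oxidase gene Cybb and the lysosomal gene Laptm5 ended at 1.49 and 1.31 times. The 72 hour signal of Slco2b1 was under 100, where signals are unreliable, and its second probe set ended at 0.236 times. By a linear trend over the 7 arrays 14 genes fell and none rose.

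**Figure D1:**
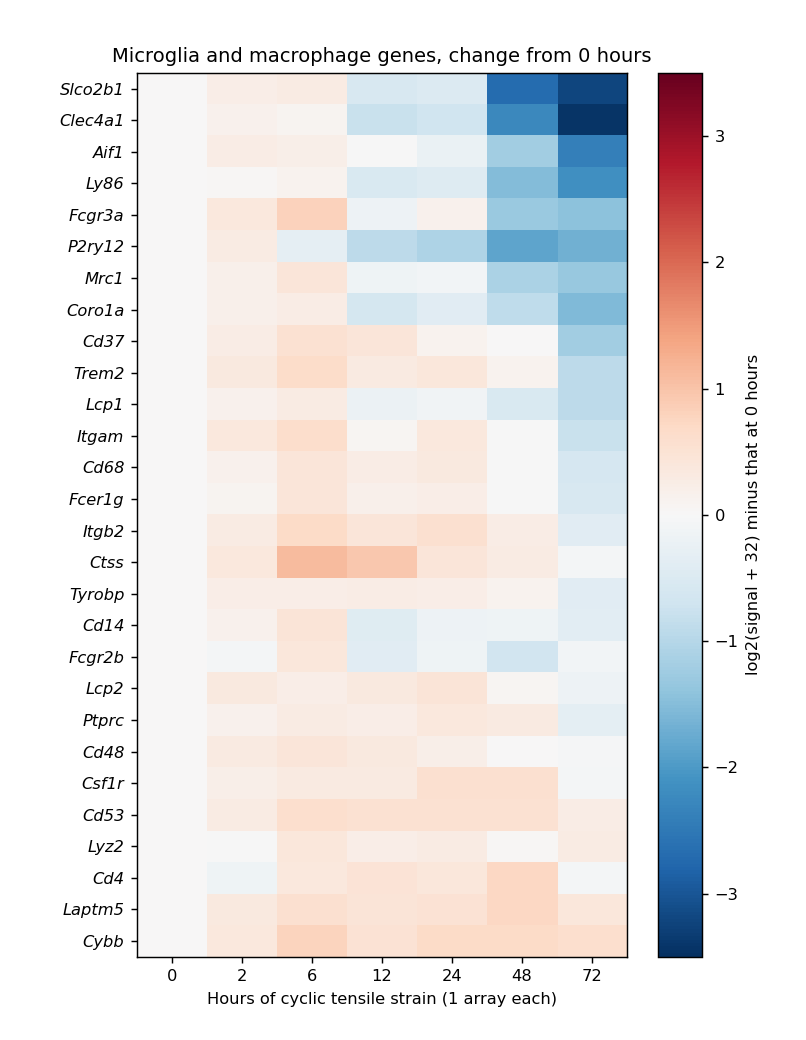
Difference from the 0 hour array in log2(signal + 32) (colour) for each of the 28 measured genes (rows, ordered by their linear trend) on the 7 arrays (columns, hours of strain). The 6 hour column is above 0 for 27 genes, and the 72 hour column runs from -3.42 to 0.58.

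The course was first followed array by array, as values without a test, since each time point has 1 array. The genes above their 0 hour signal numbered 25 of 28 at 2 hours and 27 at 6 hours, while 48.4% and 46.4% of the 17709 probe sets that passed the same minimum in the whole table were above it at those times. At 12 and 24 hours 17 and 18 genes were above it (50.6% and 49.7% of all probe sets), at 48 hours 14 (48%) and at 72 hours 4 (49.7%). The median difference over the 28 genes was 0.24, 0.41, 0.22, 0.23, -0.01 and -0.48 at the 6 later times in order, and the median over all probe sets stayed between -0.04 and 0.01. With the arrays brought to a common median, all differences shifted upward by 0.07 to 0.17 on the log2 scale, and 27 genes were then above 0 hours at 2 and 6 hours and 6 at 72 hours.

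The 6 hour array carried the highest signal of the 7 for 19 of the 28 genes, against 14.2% of all probe sets, and the 72 hour array the lowest for 20, against 22.3%. The summed signal of 6 reference genes was also highest at 6 hours, at 60029 beside 54738 at 0 hours. Their median difference from 0 hours was then 0.17, beside 0.41 for the 28 genes. The summed signal of the astrocyte markers was lowest at 6 hours, at 27966. None of the 28 genes was highest at 0 or 72 hours, where 21.6% and 24.4% of all probe sets were. Quantile normalization left 16 genes highest at 6 hours and 19 lowest at 72 hours. With the 2 hour array as the baseline in place of the 0 hour array, 23 of the 28 genes were above it at 6 hours, against 48.1% of all probe sets.

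Between neighbouring arrays most genes were lower on the later one at 3 steps. From 6 to 12 hours the signal was lower in 24 of 28 genes, with a median ratio of 0.845 (46.1% of all probe sets were lower). From 12 to 24 hours it was lower in 8, with a median ratio of 1.06 (50.6%). From 24 to 48 hours it was again lower in 24, with a median ratio of 0.820 (51.7%) and the lowest ratio, 0.178, for Slco2b1, while Cd53, Cd4, Cd14 and Laptm5 were higher. From 48 to 72 hours it was lower in 25, with a median ratio of 0.691 (46.8%). The summed signal of the 28 genes was 1.14, 1.40, 1.17, 1.19, 1.02 and 0.816 times that at 0 hours on the 6 later arrays. It was highest at 6 hours and lowest at 72 hours, as for most single genes.

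The study's methods set a threshold of size, a 2-fold ratio in either direction together with a difference of 200 or more. A single gene of the list was past it upward on any array, which was Ctss at 6 hours. Of all probe sets 0.0678%, 0.604%, 0.734%, 0.87%, 3.47% and 4.5% were past it upward on the 6 later arrays in order. None was lower at 2, 6, 12 or 24 hours, where 0.824%, 2.13%, 2.98% and 2.28% of all probe sets were. At 48 hours 7 genes were past it downward (P2ry12, Fcgr3a, Aif1, Clec4a1, Ly86, Mrc1 and Slco2b1; 5.3% of all probe sets), and at 72 hours 9 were, with Coro1a and Cd37 added (6.16%).

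Limma was used to fit a line over hours to all 7 arrays, and the words rose and fell are used below of genes past this test at an adjusted p under 0.05, or past that of another fit where one is named. Of the 28 genes 14 fell, none rose and 14 did not pass, beside 14.1% of all probe sets that fell and 15% that rose. The median fitted change over 72 hours was -0.60 for the list and -0.00 over all probe sets tested. At an unadjusted p under 0.05, 15 genes were lower and none higher, beside 41.4% of all probe sets in either direction. Each gene's change is given as the fitted change over 72 hours on the scale of log2(signal + 32) with its standard error (SE). The spread in this test is that around the line over time and not between cultures. Of the 14 falls, 8 passed under every alternative setting (P2ry12, Aif1, Coro1a, Lcp1, Clec4a1, Ly86, Mrc1 and Slco2b1), and 9 genes fell when the 72 hour array was left out, these 8 and Fcgr3a. Leaving out the 0 hour array gave 19, with Tyrobp, Lcp2, Itgb2, Cd48 and Ctss added, and leaving out the 2 hour array gave 13, with Itgam lost.

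**Figure D2:**
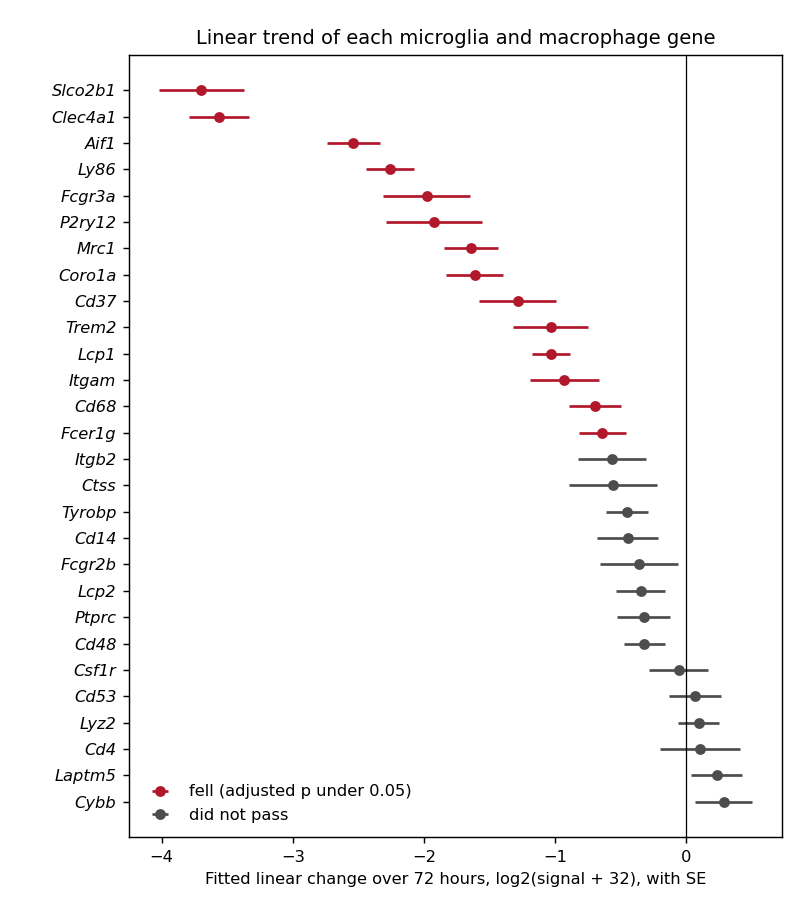
Fitted linear change over 72 hours on the scale of log2(signal + 32) with its standard error (horizontal axis) for the 28 measured genes (vertical axis), in red where the gene fell and in grey where it did not pass. The values run from -3.70 for Slco2b1 to 0.29 for Cybb, and the 14 genes in red form the lower end.

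Genes of the myeloid lineage are known to be controlled by PU.1, the product of Spi1, which binds a core that reads GAGGAA on either strand. The 250 bases before the start of transcription were taken from RefSeq (build GRCr8) for the 18 measured genes that have an entry. Shown are 4 that hold the core, of Clec4a1 and Fcgr3a, which fell, and of Laptm5 and Cybb, which ended above their 0 hour signal. They lie at chr4:157845561-157845810 on the plus strand (Clec4a1), chr13:85782386-85782635 on the plus strand (Fcgr3a), chr5:148371630-148371879 on the plus strand (Laptm5) and chrX:16065066-16065315 on the minus strand (Cybb). Each runs 5′ to 3′ on the strand of the gene and ends at the base before the start, and capitals mark the core, which reads TTCCTC here because it lies on the opposite strand.
Clec4a1: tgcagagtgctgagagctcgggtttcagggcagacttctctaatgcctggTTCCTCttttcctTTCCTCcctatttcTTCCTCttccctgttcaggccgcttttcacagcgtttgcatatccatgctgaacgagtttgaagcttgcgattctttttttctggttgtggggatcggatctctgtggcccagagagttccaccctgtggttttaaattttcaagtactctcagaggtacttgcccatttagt
Fcgr3a: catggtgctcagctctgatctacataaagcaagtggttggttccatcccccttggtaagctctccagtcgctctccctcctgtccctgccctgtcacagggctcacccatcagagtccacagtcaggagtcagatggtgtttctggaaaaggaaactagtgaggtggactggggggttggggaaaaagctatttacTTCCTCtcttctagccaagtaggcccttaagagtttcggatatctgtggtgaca
Laptm5: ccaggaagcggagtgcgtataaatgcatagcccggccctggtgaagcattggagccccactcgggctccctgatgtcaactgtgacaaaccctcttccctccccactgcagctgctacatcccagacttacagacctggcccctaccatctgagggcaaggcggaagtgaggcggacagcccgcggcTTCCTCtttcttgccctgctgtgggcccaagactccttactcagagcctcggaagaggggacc
Cybb: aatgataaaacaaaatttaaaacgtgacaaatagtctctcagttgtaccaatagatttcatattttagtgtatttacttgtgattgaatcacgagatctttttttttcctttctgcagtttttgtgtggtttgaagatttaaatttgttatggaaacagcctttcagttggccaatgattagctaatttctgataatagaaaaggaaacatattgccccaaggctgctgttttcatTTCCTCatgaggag
Counted back from the start of transcription, the core begins at positions -200, -187 and -173 in Clec4a1, -54 in Fcgr3a, -63 in Laptm5 and -14 in Cybb. It was found on either strand in 15 of the 18 promoters (83.3%), against 23.3% of 33469 rat promoters of the same length and 22.9% of the 8609 of measured genes. It was found in 7 of 9 promoters of genes that fell and in 8 of 9 of those that did not pass, and the promoters without it were those of Slco2b1, Coro1a and Cd48. The AP-1 motif TGANTCA reads the same on both strands when N is left aside and does not overlap the core. It was present in 2 of the 18 (11.1%), against 6.34% of all promoters and 4.26% of those of measured genes. A match of letters is a description of the sequence and not a measured binding site.

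The genes that define microglia were unequally represented. CSF1R, on whose signal microglia and macrophages depend for survival, had Csf1r signals of 5069, 5899, 6276, 6348, 7465, 7444 and 4813 on the arrays in order of time from 0 to 72 hours. It was thus higher on every array from 2 to 48 hours than at 0 hours and lower only at 72 hours, and its linear change of -0.06 ± 0.22 (SE, adjusted p = 0.875) did not pass. P2ry12, the purinergic receptor by which resting microglia sense ATP, had signals of 308, 386, 241, 149, 129, 62.0 and 74.8 in the same order. It was the 1 gene of the 28 measured below its 0 hour signal at 6 hours, and remained below it on every later array. It fell by the trend test with -1.92 ± 0.37 (SE, adjusted p = 0.00439).

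Cx3cr1, the fractalkine receptor used to label microglia, had a mean signal of 61.5 and Csf3r, the granulocyte colony-stimulating factor receptor, one of 59.3. Both were left out of the tests as too dim. For Cx3cr1 the signals were between 21.2 at 48 hours and 90.0 at 2 hours. Spi1 had no probe set annotated with its symbol alone. The label was met by the leukocyte and macrophage genes below. Of the genes of the list most particular to microglia, Cx3cr1 was below the minimum and P2ry12 was under 100 at 48 and 72 hours. Outside the list, Tmem119 and Gpr34 were above 100 on every array, and the former rose while the latter fell, as described below.

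Of the 6 adaptors and receptors of ITAM signalling and their partners 3 fell and none rose. Tyrobp, the adaptor of TREM2, had signals of 11462, 13512, 13398, 13733, 13432, 12570.5 and 8735, and Fcer1g, the gamma chain that serves Fc receptors, had 16587, 17605, 22052, 18804, 19495, 16291 and 11195.5. Both were above 0 hours up to 24 hours and lowest at 72 hours. Fcer1g fell with -0.64 ± 0.18 (SE, adjusted p = 0.0258), and Tyrobp missed the threshold with -0.45 ± 0.16 (SE, adjusted p = 0.0594).

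Trem2, the lipid receptor that signals through TYROBP, had signals of 2616, 3316, 4097, 3236, 3458, 2868 and 1367.5 and fell with -1.03 ± 0.29 (SE, adjusted p = 0.023). On this probe set all arrays from 2 to 48 hours were above the 0 hour array, and the 72 hour array alone was below it. Without that array the change, still scaled to 72 hours, was -0.16 with an adjusted p of 0.771, so that the call rested on 1 array. A second probe set of Trem2 was below its 0 hour signal at 48 hours too, at 0.882 times, ended at 0.445 times and fell with -1.25 (adjusted p = 0.00694). Fcer1g (-0.19), Itgam (-0.36), Cd37 (-0.37) and Cd68 (-0.21) also lost the call without the 72 hour array.

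Of the 2 Fc gamma receptors 1 fell. Fcgr3a, a low-affinity receptor for IgG whose promoter is shown above, had signals of 3787, 4888, 6648, 3369, 4184, 1530.2 and 1384. It was highest at 6 hours, at 1.76 times its 0 hour signal, was below the 0 hour signal at 12, 48 and 72 hours, and fell with -1.98 ± 0.33 (SE, adjusted p = 0.0024). The inhibitory receptor gene Fcgr2b lay between 178 and 415, with its lowest signal at 48 hours and 286 at 72 hours, and did not pass (-0.36). Lcp2, an adaptor that links ITAM receptors to phospholipase C, had signals of 1224, 1548, 1441, 1562, 1698, 1292 and 1085 and did not pass either (-0.34). A second probe set of Lcp2 did fall (-0.58, adjusted p = 0.0156).

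The chains of the integrin CR3, which binds complement fragments on opsonised particles, had their highest and lowest signals on the same arrays. Itgam, its alpha chain, had signals of 409, 533, 643, 430.3, 535, 403 and 227 and fell with -0.93 ± 0.27 (SE, adjusted p = 0.026). Itgb2, the beta chain shared by leukocyte integrins, had 6469, 7926, 10288.5, 8643, 9646, 7819 and 4936 and did not pass with -0.56 ± 0.26 (SE, adjusted p = 0.128). Each reached its highest signal at 6 hours, at 1.57 and 1.59 times that at 0 hours, and its lowest at 72 hours.

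All 3 measured genes of leukocyte actin regulation fell. Aif1, which encodes the calcium-binding protein IBA1 used to stain microglia, had signals of 3578, 4269.6, 4150.5, 3528, 3049, 1516 and 654 and fell with -2.54 ± 0.20 (SE, adjusted p = 0.000144). It was above 0 hours at 2 and 6 hours and lower on each array after 2 hours than on the one before. Coro1a, which encodes the coronin of leukocytes, had 5306, 5995, 6368, 3435, 4011, 2826 and 1797 and fell with -1.61 ± 0.22 (SE, adjusted p = 0.000994).

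Lcp1, which encodes the actin-bundling protein L-plastin, had 10484, 11567, 12771, 9146, 9615, 7171 and 5591 and fell with -1.03 ± 0.14 (SE, adjusted p = 0.00115). For Coro1a and Lcp1 the arrays from 12 hours onward were all below the 0 hour array and those at 2 and 6 hours above it. The arrays up to 6 hours and those after them thus did not overlap. Nor did they overlap for P2ry12, Fcgr2b, Aif1, Clec4a1, Cd14, Ly86, Mrc1 and Slco2b1. The share of all probe sets without such an overlap was not counted. A second probe set of Aif1 was below the minimum (mean signal 75.1) and stood at 1.20 times its 0 hour signal at 72 hours.

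Among the surface proteins of leukocytes the values ranged from the steepest falls to none. Clec4a1, a C-type lectin receptor of myeloid cells, had signals of 1709, 1896, 1839, 973, 1045, 331 and 130.2 and fell with -3.57 ± 0.23 (SE, adjusted p = 8.86e-05). Its signal was nearly level up to 6 hours, was about as low at 24 as at 12 hours, and was lower again at 48 and at 72 hours. Cd37, a tetraspanin, had 1107, 1326, 1627, 1492, 1204, 1113 and 458 and fell with -1.28 ± 0.29 (SE, adjusted p = 0.00986), and it was below its 0 hour signal at 72 hours only.

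The other 4 did not pass. Ptprc, the phosphatase CD45 of all leukocytes, had signals of 3440.3, 3806, 4178, 4010.0, 4441, 4246 and 2698 and a change of -0.32 ± 0.20 (SE, adjusted p = 0.258). The tetraspanin gene Cd53 had 7744, 9396, 11578, 11223, 11198, 11233 and 9326 and remained above its 0 hour signal on every later array. Cd48, an adhesion protein, lay between 2620.1 and 3622, and Cd4, which rat macrophages carry as well as T cells, between 214 and 421. The T cell receptor complex genes Cd3d, Cd3e and Cd3g had mean signals of 9.73, 38.9 and 18.2, below the minimum. Of 7 T cell markers 5 were below it, while Cd8a and Lck were measured, with mean signals of 1104 and 371.

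Of the pair of innate sensing genes 1 fell. Ly86, which encodes the MD-1 partner of a Toll-like receptor homologue, had signals of 1647, 1684, 1788, 1121, 1193, 558 and 346 and fell with -2.26 ± 0.18 (SE, adjusted p = 0.000144). It followed the course of Clec4a1, with neighbouring values at 12 and 24 hours and lower ones at 48 and 72 hours. Cd14, the co-receptor for lipopolysaccharide, had 6756, 7441, 9259, 5032, 5935, 6090.0 and 5254 and did not pass with -0.45 ± 0.23 (SE, adjusted p = 0.169). After its highest signal at 6 hours it was below the 0 hour signal on each later array, without a further decline up to 48 hours.

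Of the 5 measured lysosomal and oxidase genes Cybb, Laptm5 and Lyz2 ended above their 0 hour signal, and Cd68 and Ctss below it. Cd68, a glycoprotein of macrophage lysosomes, had signals of 12269.7, 13609.7, 16395, 14624, 15412, 12048 and 8129 and was the 1 gene of these 5 that fell, with -0.70 ± 0.20 (SE, adjusted p = 0.0249). Ctss, which encodes the lysosomal protease cathepsin S, had 8718, 11224.5, 18891.5, 16651, 11665, 10684 and 8258. It was 2.17 times as high at 6 hours as at 0 hours, returned to 0.947 times at 72 hours and did not pass the linear test (-0.56).

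Laptm5, a lysosomal membrane protein of blood cells, had signals of 6719.9, 8466, 10009, 9262, 9598, 11051.5 and 8788, and Cybb, the catalytic subunit of the phagocyte NADPH oxidase, had 7119, 9136, 12299.5, 10106, 11296, 11263 and 10639. Every later array lay above the 0 hour array for both. Their linear changes of 0.23 ± 0.20 (SE, adjusted p = 0.402) and 0.29 ± 0.22 (SE, adjusted p = 0.354) did not pass, and neither did that of Lyz2, which encodes lysozyme (19788, 19454, 25943, 23156, 24232, 20349.8 and 24015.5; 0.10). The invariant chain gene Cd74, which serves antigen presentation on MHC class II, had a mean signal of 80.8 and was left out of the tests. It declined in value from 114 at 0 hours to 42.0 at 72 hours.

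Both measured genes of tissue macrophages fell. Mrc1, the mannose receptor CD206, had signals of 4647, 5271, 6248, 4159, 4340.0, 2148 and 1851 and fell with -1.64 ± 0.21 (SE, adjusted p = 0.000765). Slco2b1, an organic anion transporter that marks macrophages of several tissues, had 949.9, 1130.3, 1166, 632, 668, 119 and 74.1 and fell with -3.70 ± 0.33 (SE, adjusted p = 0.000184), and its second probe set, with a mean signal of 183, also fell (-1.84, adjusted p = 0.00408). On both genes the arrays formed 3 levels without overlap, up to 6 hours, at 12 and 24 hours, and at 48 and 72 hours. P2ry12, Aif1, Coro1a, Lcp1, Clec4a1 and Ly86 had the same 3 levels. The share of all probe sets with such levels was not counted. The haptoglobin-haemoglobin receptor gene Cd163 had a mean signal of 3.41, and the scavenger receptor gene Msr1 had no probe set annotated with its symbol alone.

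**Figure D3:**
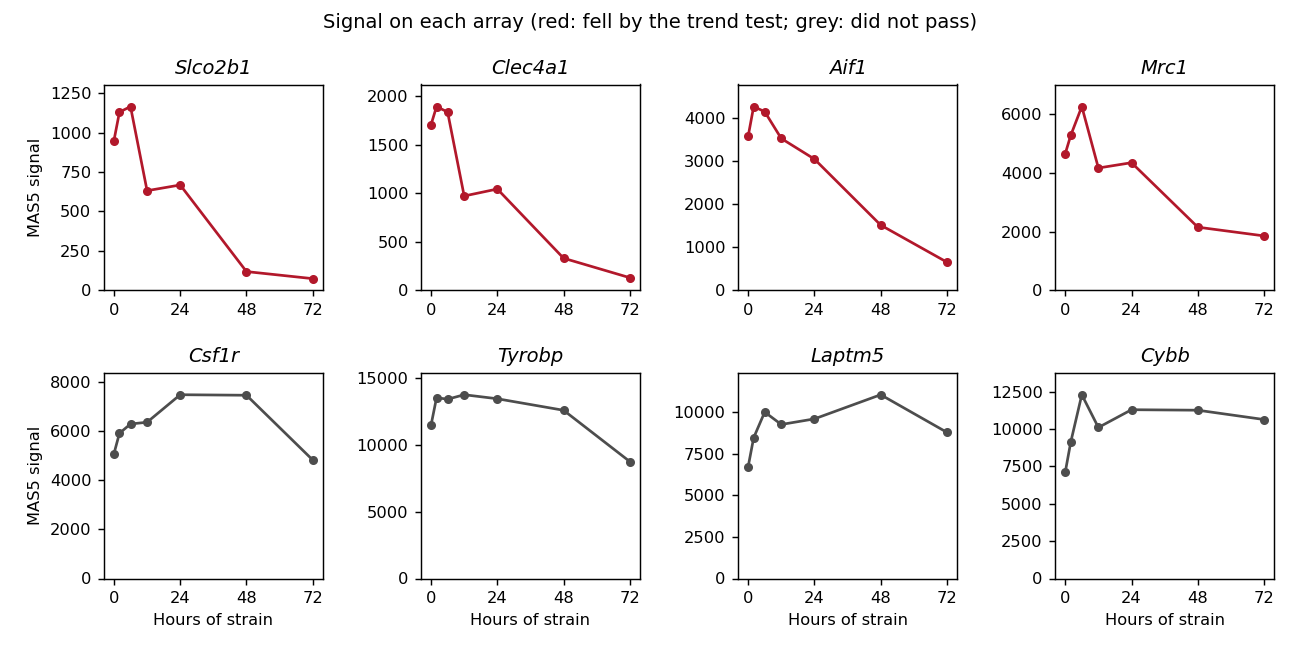
MAS5 signal (vertical axis, linear and starting at 0) against hours of strain (horizontal axis) on each of the 7 arrays for 8 of the genes, in red where the gene fell and in grey where it did not pass. Slco2b1 went from 950 at 0 hours to 74.1 at 72 hours, while Cybb went from 7119 to 10639 with its highest value at 6 hours.

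In a fit with separate slopes up to and after 24 hours, declines passed the test in the later part. From 24 to 72 hours 7 of the 28 genes fell and none rose, beside 1.09% and 0.503% of all probe sets, and 27 of the 28 fitted changes were negative. Slco2b1 changed by -2.68 ± 0.41 (SE, adjusted p = 0.0203), Clec4a1 by -2.60 ± 0.28 (SE, adjusted p = 0.00772) and Aif1 by -2.20 ± 0.17 (SE, adjusted p = 0.00494). Ly86 (-1.62), Trem2 (-1.35), Cd68 (-0.96) and Fcer1g (-0.84) fell as well. This count depended on single arrays. It was 0 when the array at 24 or 72 hours was left out, 2 when that at 2 hours was, 4 for 48 hours, 5 for 12 hours, 10 for 0 hours and 12 for 6 hours.

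From 0 to 24 hours no gene of the list passed in either direction, beside 0.00565% of all probe sets that rose and 0.0113% that fell. At an unadjusted p under 0.05 limma gave 6 genes higher and 6 lower, beside 18.2% of all probe sets in either direction. The lowest adjusted p was that of P2ry12 (0.0947), with a fitted change of -1.45, and 17 of the 28 changes were positive. For the difference between the slopes 12 genes were lower and 1 higher at an unadjusted p under 0.05, beside 8.13% of all probe sets in either direction. The difference passed for no gene and for 0% of all probe sets, with a lowest adjusted p of 0.579. That the decline was steeper after 24 hours than before was therefore not shown by the test.

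**Figure D4:**
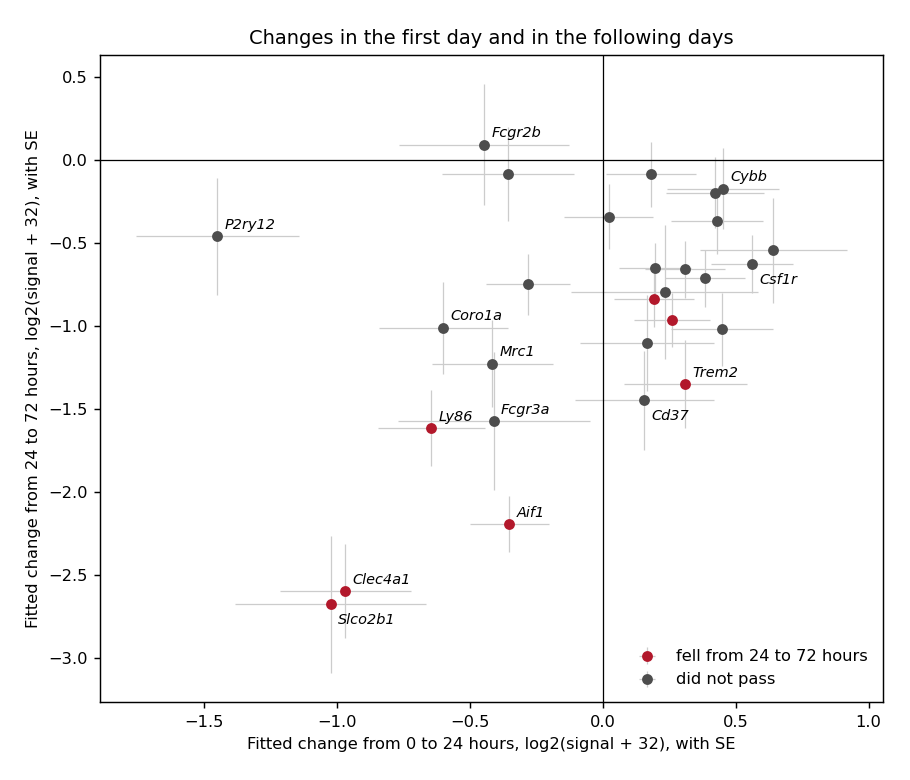
Fitted change from 24 to 72 hours (vertical axis) against fitted change from 0 to 24 hours (horizontal axis), both on the scale of log2(signal + 32) with their standard errors, for the 28 genes. The 7 genes that fell from 24 to 72 hours are red, 27 genes lie below 0 on the vertical axis, and P2ry12 lies farthest to the left at -1.45.

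How the genes spread around their own middle was described by centring each array on the median of the 28 genes before the fit, a setting chosen after seeing the data, which by construction places genes on either side of 0. Relative to that median 8 genes passed downward and 5 upward, beside 1.39% and 42.4% of all probe sets. The 8 that passed downward were P2ry12, Fcgr3a, Aif1, Coro1a, Clec4a1, Ly86, Mrc1 and Slco2b1, and their relative changes ran from -0.89 ± 0.27 (SE) for Coro1a to -2.98 ± 0.36 for Slco2b1. The 5 that passed upward were Csf1r (0.66 ± 0.24), Cd53 (0.79 ± 0.21), Lyz2 (0.82 ± 0.22), Laptm5 (0.95 ± 0.22) and Cybb (1.01 ± 0.21). Without centring the changes of these 5 ran from -0.06 to 0.29 and none passed, and their share of the list was below that of all probe sets. Without the 72 hour array 7 genes passed downward and none upward relative to the median.

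The same fit, in which 14.1% of all probe sets fell and 15% rose, was read for other genes of the lineage. Of 22 further microglia and macrophage genes 12 fell and 1 rose, with a median change of -0.69. Adgre1, the macrophage antigen F4/80, fell with -2.28 ± 0.34 (SE, adjusted p = 0.00145), the scavenger receptor gene Stab1 with -2.17 ± 0.23 (SE, adjusted p = 0.000362), and the receptor genes P2ry6 and Gpr34 with -2.16 and -1.73. The gene that rose was Tmem119, a membrane protein used to mark microglia, with signals of 1649, 1813, 1592, 1726, 1838, 2504 and 3114 and a change of 0.91 ± 0.13 (SE, adjusted p = 0.00125). Its signal was highest at 72 hours, whereas that of P2ry12 was among its lowest there. Without the 72 hour array 6 of these genes fell, and Tmem119 rose with any 1 array left out. C1qa, a chain of the complement component C1q that microglia produce, fell with -2.69 ± 0.40 (SE, adjusted p = 0.00156).

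Among 8 measured transcription factors of the myeloid lineage 4 fell and none rose, with a median of -0.53. They were Mef2c (-1.38), Irf8 (-0.92), Fli1 (-0.59) and Maf (-0.47). Irf8, which microglia require for their development, had signals of 1338, 1018, 1142, 831, 1041, 818 and 558. Runx1 did not pass (-0.01). Leaving out either the 2 or the 72 hour array left 2 falls. Of 10 genes that act downstream of ITAM receptors 5 fell and none rose (median -0.60), led by the kinase gene Fgr (-1.37), the adaptor gene Blnk (-1.31), Plcg2 (-0.91) and the kinase gene Lyn (-0.86). Without the 72 hour array 1 of them fell.

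Beside 14.1% of all probe sets that fell and 15% that rose, none of the 8 measured ligands and related cytokines fell. Of these 8, 1 rose, near the share of all probe sets. It was Csf1, the ligand of CSF1R, with signals of 887, 941, 968, 984, 986, 1041 and 1419.6 and a change of 0.52 ± 0.14 (SE, adjusted p = 0.0178), and it was highest on the 72 hour array, on which Csf1r was lowest. Without that array Csf1 did not pass. Il34, the other ligand of CSF1R, had a mean signal of 33.3, below the minimum. Tgfb1 (-0.32), Cx3cl1 (-0.46) and Apoe (0.12) did not pass. Of the partners of Cybb in the NADPH oxidase, 2 of 3 measured fell, Ncf4 (-0.82) and Cyba (-0.73), whereas Cybb did not. The third, Ncf1, had signals of 828, 1515, 2303, 2253, 2023, 2144 and 1447, above 0 hours on every later array and at 1.75 times at 72 hours, and did not pass (0.20). Neither Ncf4 nor Cyba passed when the array at 2 or at 72 hours was left out. Of 7 genes of MHC class II 2 were measured, RT1-DMb and RT1-DMa, and both fell (-1.57 and -0.76), with none passing without the 72 hour array.

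**Figure D5:**
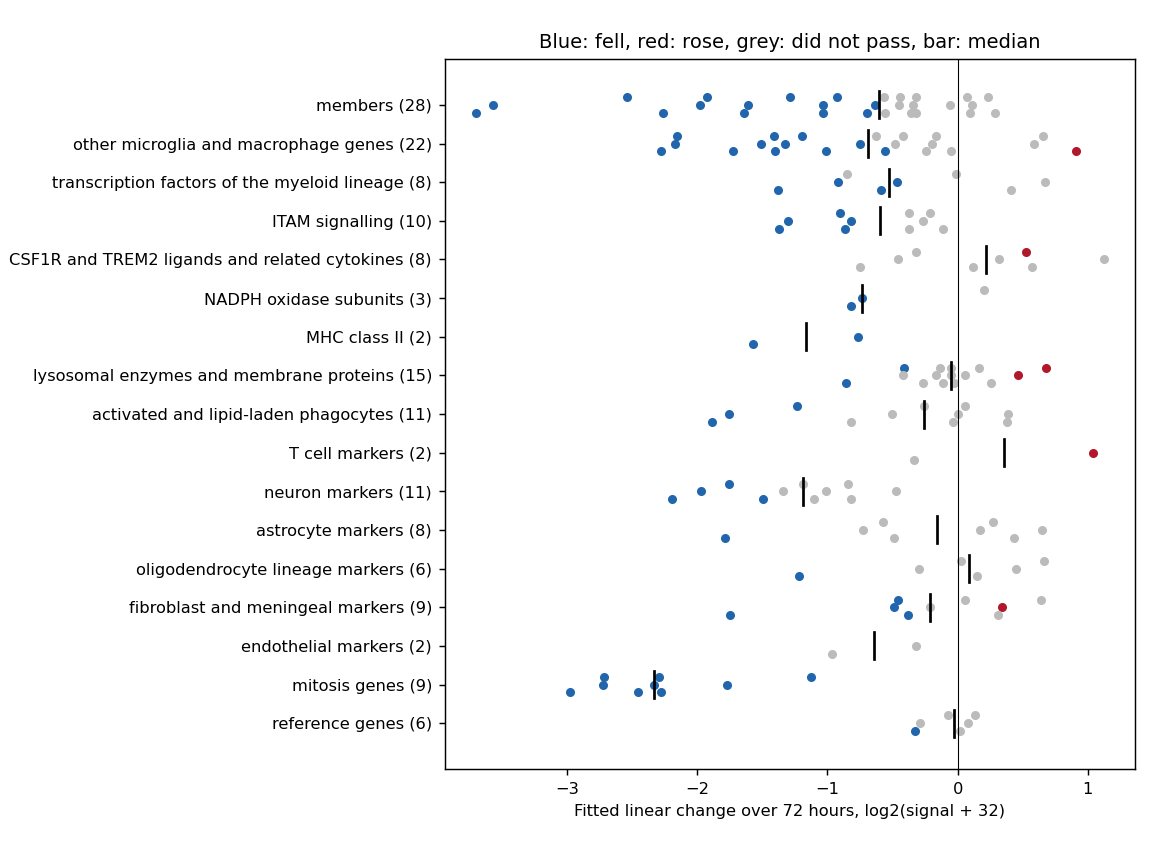
Fitted linear change over 72 hours on the scale of log2(signal + 32) (horizontal axis) of each measured gene in the microglia and macrophage list, labelled members, and in the other lists of the lineage and of other cells (rows, with the number measured). Blue points fell, red points rose, grey points did not pass and the bar is the median, which lies at -0.60 for the 28 genes and at -2.33 for the mitosis genes.

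Some genes of other cells and the actin control of RNA quality changed with hours as well. All 9 mitosis genes fell (median -2.33), as did 4 of 11 neuron markers (-1.19), beside 14.1% of all probe sets that fell and 15% that rose. The median difference of the 11 neuron markers from 0 hours was -0.69, -0.95, -1.66, -1.31, -2.06 and -1.51 on the later arrays in order. Of the fibroblast and meningeal markers 4 of 9 fell and 1 rose. Falls of 1 of 8 astrocyte markers and 1 of 6 oligodendrocyte markers were near the share of all probe sets. Neither of 2 endothelial markers passed. Of 6 reference genes 1 fell (Ywhaz, -0.32), which did not pass when any 1 array from 2 to 72 hours was left out. The summed signal over the arrays ranged from 1528 to 8561 for the mitosis genes, from 4755 to 20254 for the neuron markers and from 27966 to 43779 for the astrocyte markers. It ranged from 8820 to 12382 for the oligodendrocyte, from 75313 to 93174 for the fibroblast and from 1224 to 2143 for the endothelial markers. Of other blood cells, the 2 B cell markers, 7 neutrophil and mast cell markers and 3 red blood cell markers that were named were all below the minimum, with summed signals of at most 35.9, 120 and 305. Of 7 T cell markers Cd8a and Lck were measured, and Cd8a rose (1.04), though not without the 2, 48 or 72 hour array. For the actin control probe sets the signal at the 3′ end over that at the 5′ end was 1.53 to 2.20 up to 24 hours and then 2.54 (48 hours) and 2.62 (72 hours), and that of Gapdh 1.09 to 1.17. The part of RNA quality and of the other cells in the higher early signals and the later decline of the microglia and macrophage genes was not tested.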

How the data were processed

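Each of the 7 Affymetrix rat arrays was scanned and read in GCOS by the authors, and the deposited values are MAS5 signal intensities on a linear scale after global scaling. Trimmed by 2% at each end, the deposited values had a mean of 500.144 to 500.162 and a median of 145 to 162. Of 31099 probe sets 57 controls were left out, and 20826 of the rest had 1 symbol in the platform annotation, 436 several and 9780 none. All 32 gene identifiers of the list matched the rat assembly GRCr8. Precision is limited by the number of arrays.

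Tests used limma 3.58.1 in R 4.3.3 (functions lmFit and eBayes, trend of the variance with intensity). Values entered as log2(signal + 32), a scale that understates changes of low signals, for the 17709 probe sets whose mean reached 100. Benjamini-Hochberg adjustment was made over all of them, with 5 residual degrees of freedom for the line over hours and 4 for separate slopes around 24 hours. The fits were tested on simulated data. Descriptions used Python 3.11.15, numpy 2.4.6 and pandas 2.3.3. The genes of the list and all other lists were chosen with earlier results of these data known. Every gene of the list could be named, and of each other list up to 4 genes of largest change past the test, with Csf1, Il34, Tgfb1, Cx3cl1, Apoe, Irf8, Runx1 and C1qa. A further gene of this rule is not reported here. The Cd3 genes, Lck and Ncf1 were named after their values were seen. Alternatives were other pseudocounts, filters, scalings, baselines, size thresholds, forms of time, bends, probe set rules, each array left out and, chosen after seeing the data, centring on the median of the list.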

Additional observations from a re-analysis of the deposited data

How the results depend on the processing

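No paired analysis was possible because each time point has 1 array. Counts under the alternatives are given without the shares of all probe sets under the same settings. They show only how the calls of each list moved with the setting. Over the alternatives, no gene of the list rose in any linear, early or late fit. The 14 falls of the linear trend became 8 with log2(hours + 1) and 9 with the order of the arrays, and 9 to 19 when 1 array was left out. The 7 falls from 24 to 72 hours became 4 without a filter, with arrays scaled to the same median or without the intensity trend, 17 with the bend at 12 hours and 0 with it at 48 hours, and 0 to 12 when 1 array was left out. With the bend at 48 hours 9 genes fell in the early part. Over all other lists together 6 genes rose and 50 fell, and 3 to 6 rose and 30 to 59 fell when 1 array was left out. With arrays scaled to the same median the median difference was 0.39 at 2 hours and turned to 0.12 at 48 hours, where a minimum mean of 200 gave 0.0083. With a ratio of at least 3, 3 and 5 genes were past the threshold downward at 48 and 72 hours and none upward at 6 hours. A ratio of at least 1.5 and a difference of at least 100 gave 6, 1, 1 and 3 genes upward at 6, 12, 24 and 48 hours and 4 and 2 downward at 12 and 24 hours. Against the mean of the 0 and 2 hour arrays none was past it upward at 6 hours and 1 downward at 24 hours, and with arrays scaled to the same median 1 was past it upward at 12 hours. Relative to the median of the list none passed upward and 5 downward with log2(hours + 1), and 2 passed upward with the order of the arrays. Other changes of sign were limited to genes that did not pass. Csf1r was at 0.037 after quantile normalization, 0.22 with log2(hours + 1) and 0.15 with the order of the arrays. With 1 array left out, the change ran from -0.22 to 0.70 for Csf1r, -0.58 to 0.0086 for Tyrobp, -0.80 to 0.10 for Itgb2, -0.47 to 0.34 for Ptprc, -0.12 to 0.49 for Cd53, -0.13 to 1.04 for Cd4 and -0.0097 to 0.19 for Lyz2. P2ry12 has no value with a minimum mean of 200. Signals under 100 are unreliable, which touches P2ry12 and Slco2b1 at the last times.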

Other observations

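Of 15 measured genes of lysosomal enzymes and membrane proteins that many cell types express, 2 rose and 2 fell, with a median linear change of -0.05. These counts were near the shares of all probe sets, of which 15% rose and 14.1% fell. The protease gene Ctsc rose with 0.68 ± 0.19 (SE, adjusted p = 0.0257) and Ctsh with 0.46 ± 0.11 (SE, adjusted p = 0.011), both on the scale of log2(signal + 32). The protease gene Ctsz fell with -0.86 ± 0.19 (SE, adjusted p = 0.00842) and the hexosaminidase gene Hexa with -0.41 ± 0.13 (SE, adjusted p = 0.0376). Without the 72 hour array 1 rose and none fell, and without the 0 hour array 4 fell. Their summed signal was highest at 6 hours, at 229041, as was that of the microglia and macrophage genes, and at 72 hours it was 190506 beside 183419 at 0 hours.

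Of 11 measured genes of activated and lipid-laden phagocytes 3 fell and none rose, beside 14.1% and 15% of all probe sets. The other 8 did not pass, and the median linear change of the 11 was -0.26. Cd36, a scavenger receptor for oxidised lipids, had signals of 2154, 3538, 3327, 3288, 2976, 1019 and 939.6 at the 7 times and fell with -1.89 ± 0.34 (SE, adjusted p = 0.00351). Lpl, lipoprotein lipase, had 18304, 18618, 20699.8, 15511.5, 17378, 8244 and 5983.5 and fell with -1.75 ± 0.18 (SE, adjusted p = 0.000291), and Itgax, the integrin chain CD11c, fell with -1.24 ± 0.21 (SE, adjusted p = 0.00261). Both Cd36 and Lpl were lower at 48 and 72 hours than on any earlier array.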
